A study of Mus musculus with 4 samples.

Results

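Polyamines are small, positively charged molecules that bind nucleic acids and are needed for growth and for the making of sperm. The 10 genes described here are those of the polyamine pathway core and its feedback regulators: the biosynthetic enzymes Odc1, Amd1, Srm and Sms, the acetyltransferase Sat1, the antizymes Oaz1, Oaz2 and Oaz3, and the antizyme inhibitors Azin1 and Azin2. They were taken by gene symbol, and every probe set (a group of short probes for 1 transcript) that the array's annotation assigns to exactly 1 of these symbols was used. That gave 21 probe sets for 8 of the 10 genes, out of 45037 mouse probe sets in all. Amd1 had no probe set under its symbol, and the 3 probe sets of Sms also name a pseudogene and were dropped, so both are not analysed here. The genes were chosen with the genotype differences known, Azin2 for its own, so their knockout and wild type values are a description and carry no test.

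The samples were testes from mice 8 weeks old on the strain C57BL/6J, 2 arrays for the Taf7l knockout and 2 for the wild type, described as littermates. The Taf7l product, made mainly in germ cells, is related to a subunit of TFIID, the complex that binds core promoters. The sources used here do not say how the gene was disrupted, or how many animals or mutant founders stand behind each group. The labels call the arrays biological replicates, but the title and the description of the second knockout array give different replicate numbers (2 and 1). With the number of animals unknown, how far the spread between arrays is biological or technical cannot be told.

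Ornithine decarboxylase, encoded by Odc1, makes putrescine from ornithine, and spermidine synthase (Srm) and spermine synthase (Sms) lengthen it with groups supplied by S-adenosylmethionine decarboxylase (Amd1). Antizymes are made by a ribosomal frameshift that polyamines promote. They bind the decarboxylase and restrain polyamine uptake, and the product of Oaz1 also leads the decarboxylase to the proteasome. Antizyme inhibitors resemble the decarboxylase without its activity and draw antizyme away from it. In the mouse testis Oaz3 and Azin2 are known as genes of haploid germ cells.

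Core promoter sequence is shown for 3 genes because TFIID acts there. Oaz1 and Odc1 are the measured genes of the pathway core whose windows hold a searched motif. The other is the acetyltransferase-like gene Satl1, which was lower in the fit reported further on. Each run is read 5′ to 3′ along the gene's own strand, from 100 bases before to 50 after the start in RefSeq (GRCm38.p6). Capitals mark the motif letters TGACG (a short site of the cAMP response element, CRE) and TATAAA (the letters of the TATA box, wherever they stand).
Oaz1, chr10:80826556-80826705, plus strand: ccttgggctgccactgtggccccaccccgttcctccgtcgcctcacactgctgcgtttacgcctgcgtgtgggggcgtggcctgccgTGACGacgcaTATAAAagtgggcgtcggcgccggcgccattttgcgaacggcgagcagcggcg
Odc1, chr12:17544773-17544922, plus strand: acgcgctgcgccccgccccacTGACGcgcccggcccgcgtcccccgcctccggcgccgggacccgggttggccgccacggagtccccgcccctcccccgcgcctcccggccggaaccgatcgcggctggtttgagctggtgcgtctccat
Satl1, chrX:112406730-112406879, minus strand: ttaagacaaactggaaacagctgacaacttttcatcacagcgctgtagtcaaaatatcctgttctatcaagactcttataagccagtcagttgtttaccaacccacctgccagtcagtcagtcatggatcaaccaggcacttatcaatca

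The search covered both strands of the 300 bases from 250 before to 50 after the start, and a match is a description, not a site. TATAAA stood in the Oaz1 window, beginning 3 bases before the annotated start and running across it. It stood in none of the windows of Odc1, Oaz2, Sat1 and Satl1, and 13.6% of all 32851 RefSeq windows hold it. TGACG stood in Oaz1 at positions -221 and -13 and in Odc1 at -79, against 20.8% of all windows. The CCAAT box stood in Oaz1 at -140 (37.4% of all windows), and the full CRE, TGACGTCA, in none of these 5 windows (1.79% of all). The windows differed in CpG content: Odc1 held 42 CpG pairs, Oaz1 29, Sat1 21, Oaz2 19 and Satl1 3. Over all windows the median was 7 and the quartiles were 3 and 20. A relation of CpG content to the genotype differences was not tested. Of the 8 measured genes, 4 were matched to a RefSeq window, and Azin1, Azin2, Oaz3 and Srm were not.

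The values are probe set signals on a linear scale as deposited, and differences are mean log2 signal in knockout minus wild type. The submitters' processing notes name MAS5, with no scaling target. Only probe sets averaging at least 45.8 across the arrays, the median of that average, were kept for the fit, since weaker signals are mostly background. The median signal was 45.3 and 45.7 on the knockout arrays and 45.3 and 45.2 on the wild type arrays, while the trimmed mean was 465 and 481 on the knockout arrays and 509 and 509 on the wild type arrays. All kept probe sets had a median difference of -0.05, and those as bright as Azin2 or Oaz1 (within 2-fold of its mean signal) had medians of -0.13 and -0.12, so small differences of bright probe sets are given beside that of their like. Taf7l had a signal of 80.6 and 72.5 on the knockout arrays, against 829 and 818 on the wild type arrays; where its probes lie relative to the disrupted part is not given. Of the marker genes fixed for testis cells, all 10 of spermatids and all 10 of spermatocytes were above the filter, none of them at or near 0.

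Azin2, the germ cell-enriched antizyme inhibitor, was lower in the knockout at its 1 bright probe set. At the probe set 1439649_at its signal was 1522 and 1598 on the knockout arrays, against 3416 and 3336 on the wild type arrays. The knockout arrays lay far below both wild type arrays, and the arrays of each genotype were close together. The means were 1560 ± 53.1 in knockout and 3376 ± 56.4 in wild type testes (SD, n = 2 each), 2.16-fold lower in the knockout (log2 -1.11, SE 0.063). Quantile normalization gave -0.99, median centring -1.12 and a larger offset -1.11. With 1 array left out the difference lay between -1.15 and -1.08. The other alternative settings change the filter, prior, block or threshold and cannot move it.

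Azin2 also has 2 probe sets that carry almost no signal, and these show no such difference. The probe set 1444585_at had 11.8 and 12.1 on the knockout arrays and 12.4 and 13.7 on the wild type arrays. The probe set 1442093_at had 3.86 and 3.88 on the knockout arrays and 3.898 and 3.88 on the wild type arrays. Both lie far under the filter, on every array, so the difference of Azin2 rests on 1 probe set. In whole testis, fewer cells that make a transcript and less of it per cell cannot be told apart, and this holds for every value here. Of the 10 spermatid markers 9 were lower in the knockout and 1 higher, with a median of -0.13 (-0.09 after quantile normalization). None was past the fit's threshold, and probe sets as bright as each marker had medians between -0.10 and -0.01. The summed signal of the 10 markers was 464061 and 450925 on the knockout arrays, against 502518 and 483964 on the wild type arrays. The trimmed mean of all probe sets was also lower on the knockout arrays, as given above. The part of the spermatid markers in the Azin2 value was not tested. Spermatocyte markers were mixed, 4 higher and 6 lower (median -0.02). Higher in the knockout were 6 of 7 kept Sertoli cell markers (median 0.07), 5 of 5 of Leydig cells (median 0.34, 1 of them past the threshold) and 5 of 5 of leukocytes (median 0.23). After quantile normalization these medians were 0.13, 0.42 and 0.22. Among all 22519 kept probe sets 9003 were higher and 13509 lower. The mean difference of 4 of 4 adipocyte markers was negative (median -0.47, none past the threshold), but only Adipoq was without overlap. At Fabp4, Car3 and Lpl the first wild type array lay below both knockout arrays and the second above both. Spermatogonial markers were mixed, 3 higher and 2 lower (median 0.07). Of 3 kept epididymis markers 2 were higher and 1 lower (median 0.03). The lower one, Cuzd1, had 117 and 129 on the knockout arrays, against 192 and 436 on the wild type arrays (difference -1.24). Lcn2 had 9564 and 15416, against 8088 and 9391 (difference 0.48). None of these was past the threshold. The summed Leydig signal was 20460 and 20906 on the knockout arrays, against 16641 and 16431 on the wild type arrays, and the part of these cells in the values that follow was not tested either.

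**Figure D1:**
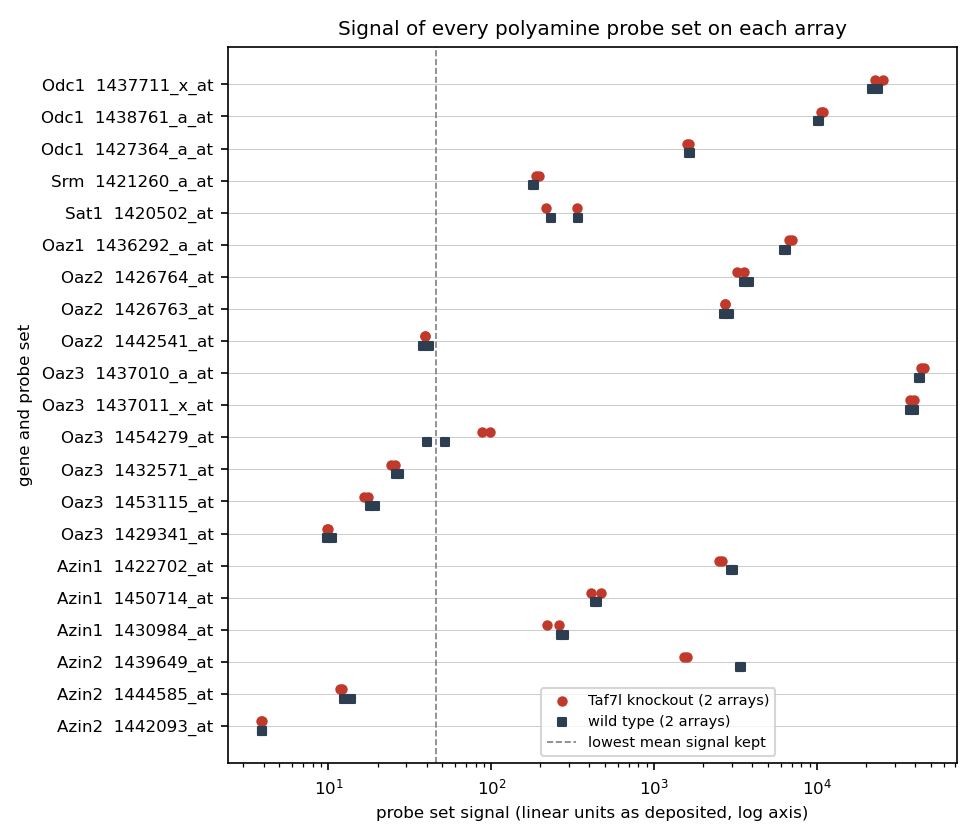
Signal of each of the 21 probe sets on the 2 knockout arrays (circles) and the 2 wild type arrays (squares), on a log axis, with the lowest mean signal kept as a dashed line. Only the brightest Azin2 probe set and the dim Oaz3 probe set 1454279_at show genotypes that stand clearly apart, while the Sat1 arrays spread widely within both genotypes.

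Azin1, the widely expressed antizyme inhibitor, was slightly lower at its brightest probe set. The probe set 1422702_at had 2601 and 2482 on the knockout arrays, against 2949 and 3044 on the wild type arrays, and the genotypes did not overlap. The difference was -0.24 (SE 0.062), or 1.18-fold lower, where probe sets of like brightness had a median of -0.13, and it was -0.10 after quantile normalization. The probe set 1430984_at had 218 and 259 on the knockout arrays and 266 and 279 on the wild type arrays (difference -0.20, SE 0.12), again without overlap but with the second knockout array close to the first wild type array. The third probe set, 1450714_at, had 468 and 411 on the knockout arrays and 434 and 448 on the wild type arrays. There the genotypes overlapped, and its difference of -0.01 was 0.05 after quantile normalization.

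At their bright probe sets the antizymes differed little between genotypes. Oaz3, the germ cell antizyme, had signals of 45190 and 43173 on the knockout arrays and 42052 and 42945 on the wild type arrays at 1437010_a_at. At 1437011_x_at it had 39262 and 37253 on the knockout arrays and 39490 and 37186 on the wild type arrays. The genotypes were thus 0.06 (SE 0.045) and -0.00 (SE 0.053) apart, the first without overlap and the second with it, where probe sets of like brightness had medians of -0.04 and -0.05. The second of these values had either sign when 1 array was left out, between -0.05 and 0.04.

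A dim Oaz3 probe set behaved differently. At 1454279_at the signal was 97.4 and 87.8 on the knockout arrays, against 40.2 and 51.6 on the wild type arrays. Both knockout arrays lay above both wild type arrays, a difference of 1.02 (SE 0.15), or 2.03-fold. It was 1.01 after quantile normalization and 1.20 without the second wild type array, in both cases larger in size than that of Azin2 (-0.99 and -1.13). The first wild type array lies under the filter value of 45.8, so the fold is uncertain. The 3 other Oaz3 probe sets lay under the filter, with signals of 25.5 and 24.1 on the knockout arrays and 26.0 and 27.1 on the wild type arrays at the brightest, 1432571_at. The sources used here do not say which Oaz3 transcript each probe set reads.

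Oaz1, the ubiquitous antizyme, had 6704 and 6965 on the knockout arrays, against 6257 and 6458 on the wild type arrays, at the 1 probe set that names it alone. The genotypes did not overlap, and the difference was 0.10 (SE 0.055), where probe sets of like brightness had a median of -0.12, and 0.23 after quantile normalization. A second probe set, which also names an Oaz1 pseudogene, was dropped. Oaz2, another widely expressed antizyme, overlapped between genotypes at both bright probe sets. It had 3243 and 3569 on the knockout arrays and 3547 and 3841 on the wild type arrays at 1426764_at (difference -0.12, SE 0.078). It had 2711 and 2714 on the knockout arrays and 2666 and 2856 on the wild type arrays at 1426763_at (difference -0.02, SE 0.065). Probe sets as bright as these had medians of -0.13 in both cases. Both Oaz2 differences changed sign under quantile normalization, to 0.02 and 0.11. The third, 1442541_at, had 39.0 and 39.1 on the knockout arrays and 41.5 and 38.2 on the wild type arrays, under the filter.

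Among the enzymes, Odc1 differed little between genotypes. At its brightest probe set, 1437711_x_at, whose suffix x marks probes that may also bind other transcripts, the decarboxylase had 22735 and 25223 on the knockout arrays and 21608 and 23481 on the wild type arrays, with overlap (difference 0.09, SE 0.073). At 1438761_a_at it had 10512 and 10877 on the knockout arrays and 10075 and 10334 on the wild type arrays, without overlap (difference 0.07, SE 0.051). At 1427364_a_at it had 1640 and 1594 on the knockout arrays and 1630 and 1649 on the wild type arrays, with overlap, and the difference of -0.02 (SE 0.063) became 0.10 after quantile normalization. Probe sets as bright as these 3 had medians of -0.07, -0.11 and -0.12 in the same order. Srm, which makes spermidine, had 197 and 188 on the knockout arrays and 181 and 184 on the wild type arrays, 0.08 higher (SE 0.090) without overlap.

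Sat1, the acetyltransferase that starts polyamine breakdown, varied more within a genotype than between them. Its signal was 217 and 334 on the knockout arrays and 233 and 340 on the wild type arrays. The arrays numbered 2 of both genotypes were high and those numbered 1 low, and the genotypes overlapped almost fully (difference -0.07, SE 0.27). Leaving out an array moved it to between -0.38 and 0.24. The summed signal of 4 adipocyte markers above the filter was also higher on the arrays numbered 2, at 945 and 1653 on the knockout arrays and 844 and 3968 on the wild type arrays, and its part in the Sat1 spread was not tested. Among all kept probe sets the arrays of the same number did not deviate together (correlation of the differences between arrays 0.03, across 22519 probe sets, which are not independent). The second arrays of both genotypes do share 2385 identical values, among them the 1442093_at value of Azin2, against 228 to 620 for the other pairs of arrays.

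**Figure D2:**
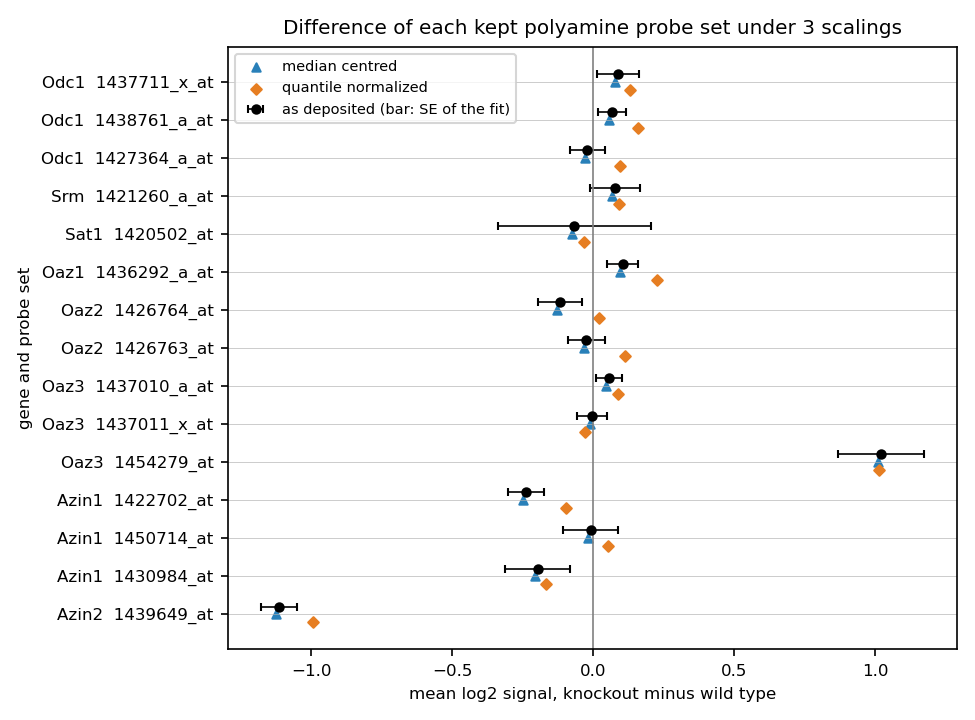
Difference in mean log2 signal, knockout minus wild type, of the 15 probe sets above the filter, as deposited (circles, with the SE of the fit), median centred (triangles) and quantile normalized (diamonds). Azin2 at -1.11 and the dim Oaz3 probe set at 1.02 stand apart, and the other 13 lie between -0.24 and 0.10 as deposited.

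Of the 15 probe sets kept, 1 was past the threshold of the limma fit over all kept probe sets (adjusted p under 0.05), that of Azin2, where 1.39% of all kept probe sets were past it, 0.444% higher and 0.941% lower. Of the 15, 2 were at least 2-fold apart without overlap, that of Azin2 and the dim one of Oaz3, against 0.475% of all. The genotypes did not overlap in 8 of the 15 (53.3%), against 55.0% of all kept probe sets. Of these, 5 were higher in the knockout and 3 lower, against 18.7% and 36.3% of all. With any 1 array left out, 0 of the 15 and 0 of all kept probe sets were past the threshold. The genes were chosen on this contrast, so nothing is read from these counts. The 6 probe sets under the filter had signals between 3.86 and 41.5 and small differences.

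**Figure D3:**
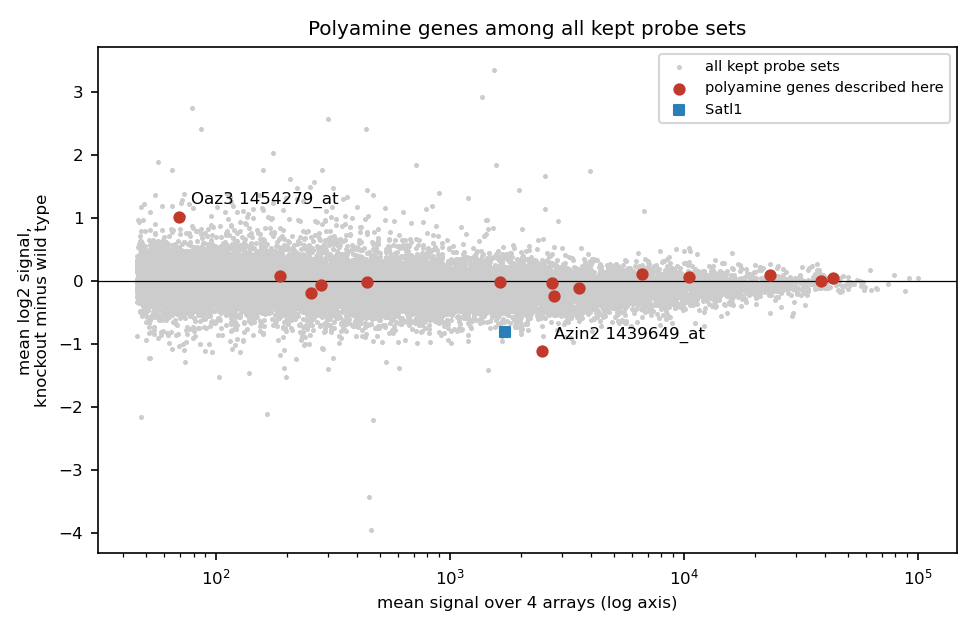
Difference in mean log2 signal, knockout minus wild type, against mean signal over the 4 arrays (log axis) for all 22519 kept probe sets (grey), the 15 polyamine probe sets described here (red circles) and Satl1 (blue square). Azin2 lies at the lower edge of the cloud at its brightness, and 13 of the 15 lie inside it near 0.

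The rest of polyamine metabolism was read from a list of 41 other genes, of which 28 had a kept probe set, 8 had only probe sets under the filter and 5 had none of their own. This list too was drawn up with earlier results of these data known, so its counts are no independent test. In the limma fit 1 of the 28 genes fell, Satl1, and 0 rose, against 1.45% and 0.67% of 12241 named genes (2.12% in either direction); 8 of the 28 (28.6%) had an unadjusted p under 0.05 at any kept probe set, against 33.9% of the named genes. At each gene's brightest probe set 14 of the 28 were higher and 14 lower in the knockout, with a median of -0.00. Of the 12241 named genes 4812 were higher and 7427 lower, with a median of -0.05.

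Satl1, an X-linked gene named for its resemblance to Sat1, had 1199 and 1295 on the knockout arrays, against 2298 and 2090 on the wild type arrays. It fell 1.76-fold (log2 -0.81, SE 0.083, limma adjusted p = 0.047), with no overlap, and this is its 1 probe set. Probe sets of like brightness had a median of -0.12. Satl1 lost its call in 6 of 14 alternative settings, among them each in which 1 array was left out. With all 4 arrays the limma adjusted p ranged from 0.0039 to 0.16 over the alternatives. The difference was -0.70 after quantile normalization and between -0.88 and -0.75 with 1 array left out. Settings of the filter, prior, block or threshold cannot move it. Sat2, another relative of Sat1, had 281 and 227 on the knockout arrays and 235 and 226 on the wild type arrays, with overlap and a difference of 0.13. Smox, spermine oxidase, had 164 and 203 on the knockout arrays and 153 and 183 on the wild type arrays, also with overlap.

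Of the genes that supply ornithine and its precursors, 7 of 10 were kept and none passed the test. Oat, ornithine aminotransferase, had 1759 and 1852 on the knockout arrays and 1409 and 1465 on the wild type arrays, without overlap (difference 0.33, SE 0.068, limma adjusted p = 0.072). Probe sets as bright as that of Oat had a median of -0.12, and its difference was 0.44 after quantile normalization. Aldh18a1, which makes the precursor that leads to ornithine and proline, had 111 and 103 on the knockout arrays and 71.5 and 69.5 on the wild type arrays at its brightest probe set (difference 0.60, SE 0.098, limma adjusted p = 0.054). Its other 2 kept probe sets overlapped between genotypes, at 0.29 and 0.09. Arg2, mitochondrial arginase, disagreed between its probe sets, with differences of -0.51 and 0.34 and overlapping genotypes at both.

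The hypusine pathway uses spermidine to modify the translation factor eIF5A, and all 4 of its genes were kept with none passing. Dohh, the hydroxylase of its second step, had 463 and 544 on the knockout arrays and 616 and 652 on the wild type arrays (difference -0.34, SE 0.11, limma adjusted p = 0.14). Dhps, the synthase of its first step, had 217 and 253 on the knockout arrays and 187 and 209 on the wild type arrays (difference 0.25, SE 0.12, limma adjusted p = 0.28). Both were free of overlap, in opposite directions. Eif5a, at 39411 and 41083 on the knockout arrays and 38952 and 36577 on the wild type arrays, differed by 0.09 at its brightest probe set. Probe sets of like brightness had a median of -0.05.

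In the methionine cycle and salvage group 7 of 9 genes were kept, none passed, and the differences at the brightest probe sets lay between -0.14 and 0.06. The genes with the smallest p were Adi1 (-0.14 at 1438758_at) and Mri1 (-0.13), both of the salvage of methylthioadenosine, the by-product of spermidine and spermine synthesis. Adi1 differed by -0.12 at its brightest probe set, 1438759_x_at, and by 0.02 at 1449076_x_at, with overlap at both. Among transporters, 5 of 10 were kept and none passed. Slc7a1, a carrier of basic amino acids, had 138 and 127 on the knockout arrays and 191 and 176 on the wild type arrays at 1454992_at (difference -0.47, SE 0.102, limma adjusted p = 0.075), with a smaller difference of -0.15 at the brighter 1454991_at. Atp13a3, related to polyamine uptake, differed by 0.29 at its brightest probe set (limma adjusted p = 0.17) and by -0.12 and 0.06 at the others. Of genes whose products have been reported to bind antizyme 3, Ggn had 548 and 503 on the knockout arrays and 660 and 609 on the wild type arrays (difference -0.27, limma adjusted p = 0.15). Ppp1r16a differed by -0.18 and -0.12 at its 2 probe sets, and neither passed.

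**Figure D4:**
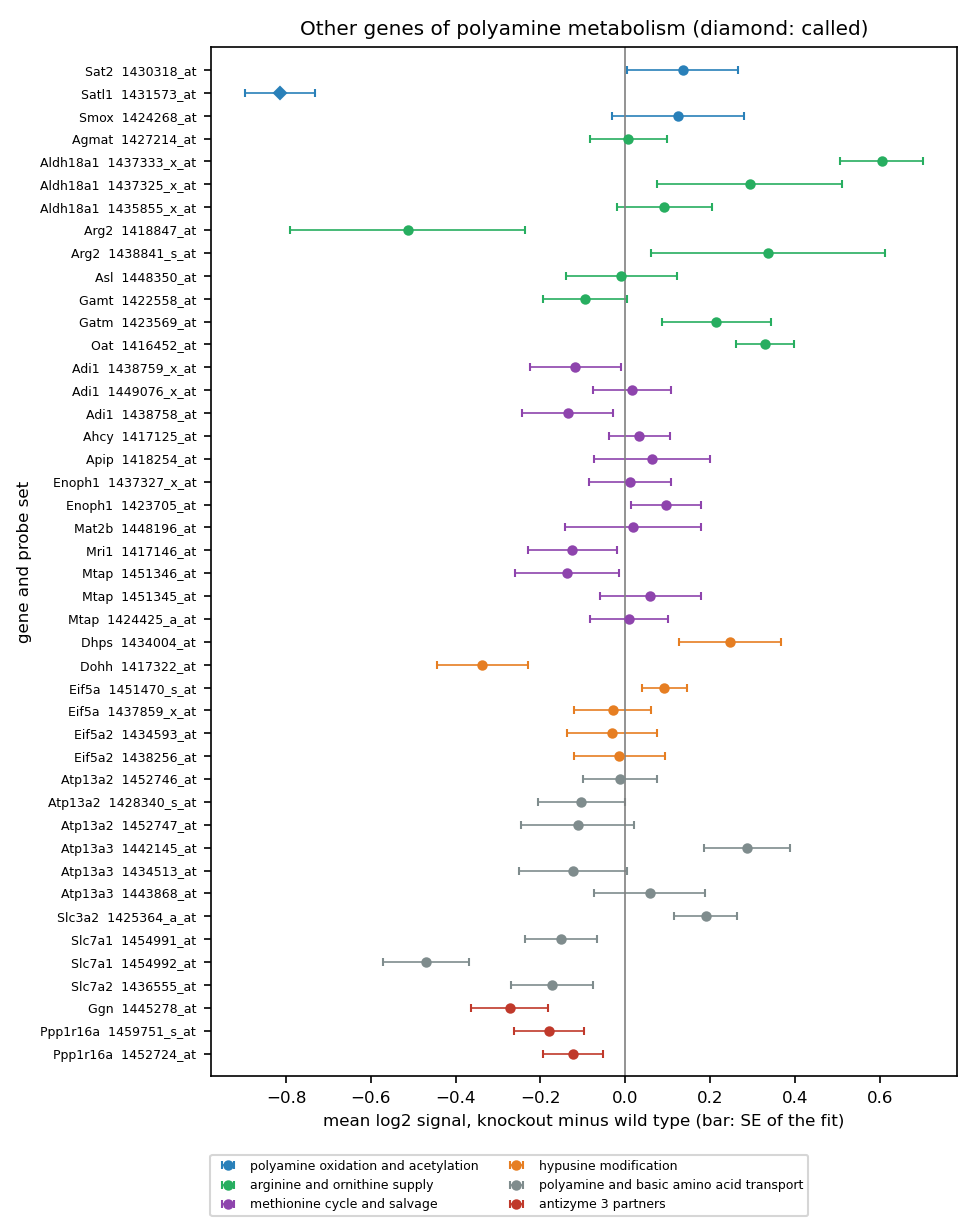
Difference in mean log2 signal, knockout minus wild type, with the SE of the fit, for the 44 kept probe sets of the 28 other genes of polyamine metabolism, coloured by group. Satl1 (diamond) at -0.81 is the called one, and the other differences lie between -0.51 and 0.60.

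The genes whose pattern over the 4 arrays was most like that of Azin2 were Macir, Dusp15, Guca1a, Cpa6 and Klhl15, by Euclidean distance of log2 signals centred on each probe set's mean. The distances were 0.085, 0.13, 0.13, 0.15 and 0.16 in that order. With 4 arrays in 2 genotypes this measure is set largely by the size of the genotype difference, which was -1.13, -0.99, -1.09, -1.08 and -1.004 against -1.11 for Azin2. Macir, a regulator of macrophage responses, had 76.5 and 81.9 on the knockout arrays and 182 and 164 on the wild type arrays. Dusp15, a dual-specificity phosphatase, had 465 and 499 on the knockout arrays and 973 and 940 on the wild type arrays. Guca1a, a guanylate cyclase activator of photoreceptors, had 72.1 and 76.9 on the knockout arrays and 150 and 166 on the wild type arrays. The other kept probe set of Macir was close, at -1.02, whereas that of Dusp15 differed by only -0.44 and that of Klhl15 by 0.01. Guca1a and Cpa6 have 1 kept probe set each. None of the 5 is on the polyamine lists.

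**Figure D5:**
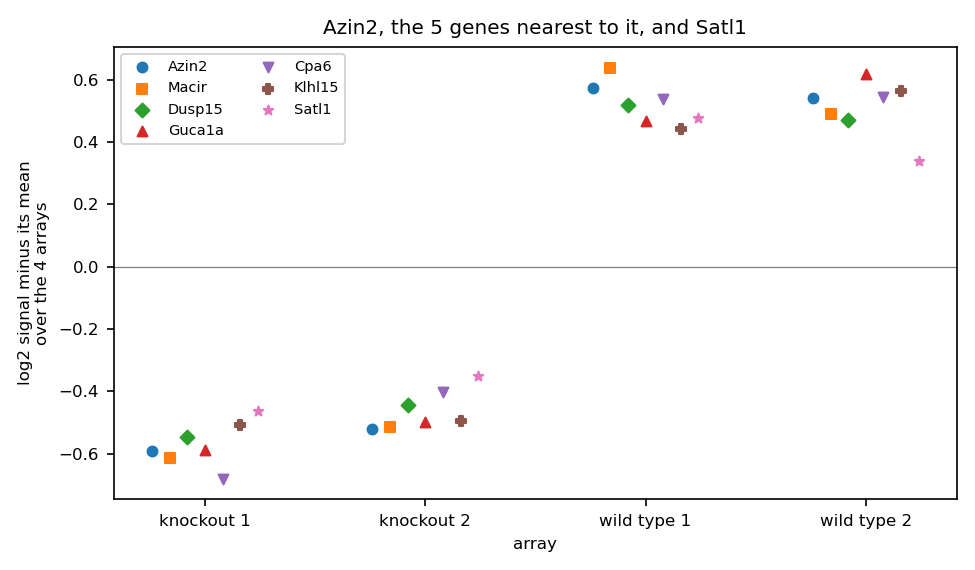
Log2 signal minus its mean over the 4 arrays for the brightest Azin2 probe set, the 5 genes nearest to it and Satl1, on each knockout and wild type array. Values of all 7 lie below 0 on both knockout arrays and above 0 on both wild type arrays, with Azin2 between -0.59 and 0.57.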

How the data were processed

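RNA from testis was hybridised as biotin-labelled cRNA, 1 sample on each of 4 Affymetrix arrays, per the labels' protocols. The deposited values are linear intensities, 1 per probe set and array, made with MAS5 per the submitters' processing notes; version, scaling target and genome build are not given in the sources used here. Genes were named through GEO's platform annotation, updated by gene ID to RefSeq GRCm38.p6. Of 45037 mouse probe sets 34945 had 1 symbol, 932 several and 9160 none.

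The log2 of each signal (offset 0) was fitted with limma 3.58.1 in R 4.3.3 (lmFit, eBayes with a variance trend, genotype as the only term, two-sided, 2 residual degrees of freedom), and p-values were adjusted by Benjamini-Hochberg across the 22519 probe sets kept. The procedure was tested on data simulated under its own model, with independent normal errors and variances drawn from the prior fitted here. That simulation cannot show how well the model holds for these arrays. The number of arrays limits precision: with 2 arrays a genotype, the smallest p of an exact two-sided permutation test is 0.333. Alternatives are other scalings, filters, offset, priors, threshold, probe sets, a replicate block and leaving out each array.

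The genes and lists were chosen with earlier results of these data known. Named are every gene of the pathway core, Taf7l, called genes or up to 2 with the smallest p per group of the list, and the 5 genes nearest to Azin2; further genes of the list, Smox, Sat2, Arg2 and Eif5a, were named after their values were seen.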

Additional observations from a re-analysis of the deposited data

How the results depend on the processing

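The number of kept probe sets called by limma, 312 as reported (32.1% of them higher), was 148 after quantile normalization (61.5% higher), 646 with median centring (22.8% higher), 2375 with the 75th percentile filter (18.2% higher), 0 with no filter (6192 at an unadjusted p under 0.05), 36 without the variance trend (69.4% higher), 179 with single-transcript probe sets, 541 with the replicate block, 2628 when the threshold was an adjusted p under 0.10, and 0 without any 1 array (3084 to 5500 at an unadjusted p under 0.05). The count among the polyamine core genes, 1 as reported (Azin2), was 2 with median centring, with the replicate block and at an adjusted p under 0.10, where the dim Oaz3 probe set joined Azin2, 0 with no filter (3 at an unadjusted p under 0.05) and 0 without any 1 array (2 to 4). The count among the other polyamine genes, 1 as reported (Satl1), was 2 with the 75th percentile filter, where Oat joined it, 4 at an adjusted p under 0.10 (also Aldh18a1, Oat and Slc7a1), 0 with no filter and without the variance trend (9 and 7 at an unadjusted p under 0.05), and 0 without any 1 array (4 to 7). These counts rest on different totals: 16021 single-transcript probe sets, 11260 with the 75th percentile filter, 45037 with no filter and 22519 in the other settings. The replicate numbers were not shown to pair the samples (correlation 0.03 between the deviations of same-numbered arrays), and the block left the Satl1 count at 1. Taf7l lost its call with no filter and without any 1 array, at a difference between -3.50 and -3.18 in all 14 alternatives. With 1 array left out, the lone array is assumed to vary like the other genotype; the cause of the other changes was not tested. The sign held in every alternative that could be fitted for Azin2, for Azin1 at 1422702_at and 1430984_at, Oaz1, Oaz3 at 1437010_a_at and 1454279_at, Odc1 at its 2 brighter probe sets and Srm. Only the scalings, the offset and leaving out an array can move a difference. The other alternatives repeat the reported difference and cannot change its sign. Signals near background limit the dim Oaz3 probe set and the 6 probe sets under the filter.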
